A study of Mus musculus with 3 samples.

Results

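The cells described here are spleen naive B cells of IL-4-treated mice in which 5 genes that IL-4 raises were low. They were 911 of the 40130 barcodes in 3 single-cell libraries and 911 of the 7254 naive cells of IL-4-treated mice, with 361, 258 and 292 of them in sets 1, 2 and 3. A naive cell had to have at least 500 genes, under 10% mitochondrial UMIs (unique molecules counted), at least 3000 gene UMIs, at least 1 UMI of Ighd (the IgD heavy chain), under 5 UMIs of Edem1, which plasma cells hold at high levels, and under 3 UMIs of the division genes Mki67 and Top2a together. Its treatment came from a hashtag antibody with at least 64 UMIs and at least 8 times the other hashtag plus 1. Cells in which Tmem123, Sypl, Dock10, Snx29 and Il4i1 together stayed under 1000 CPM (counts scaled to a total of 1000000 gene UMIs) are called low-signature cells, and those at 2000 CPM or more, 3992 cells, are called high-signature cells. The 5 genes chose the groups and are left out of every result.

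All mice were female wild-type BXD2, an inbred strain used as a model of spontaneous lupus, and all were dosed with R848, which activates TLR7, with 40 µg for each 20 g of mouse. IL-4+R848 mice had been given 5 µg of recombinant IL-4 complexed with 25 µg of anti-IL-4 antibody, which prolongs its action, and R848 mice 25 µg of the antibody alone, so the controls carried the antibody too. R848 came 2 hours after this injection, both were repeated 2 days later, and spleens were taken 2 days after that. The series names 3 mice per treatment and each library mixes both treatments, but the labels do not say that a set holds 1 mouse of each, so p-values measure the spread between sets. The reference is the 8391 R848 naive cells that passed the same gates, whatever their 5-gene sum.

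IL-4 acts on B cells through a receptor of the IL-4 receptor alpha chain and the common gamma chain. The kinases JAK1 and JAK3 then phosphorylate STAT6, which enters the nucleus and binds promoters. In B cells the cytokine is known for raising MHC class II, the low-affinity IgE receptor CD23 and its own receptor chain, and for supporting switching to IgG1 and IgE.

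Low-signature cells made up 14.4%, 10.4% and 12.9% of the IL-4+R848 naive cells in sets 1 to 3, a mean of 12.6% ± 2.05 (SD, n = 3 sets). Among R848 naive cells, 83.2%, 79.3% and 80.8% lay under the same limit. Few molecules decide it, since the median low-signature cell held 4, 5 and 4 UMIs of the 5 genes in sets 1 to 3, against 19, 23 and 18 UMIs in high-signature cells and 3, 4 and 3 UMIs in R848 cells. The share of IL-4+R848 cells by 5-gene sum had no gap at either limit. Just inside the lower limit, at 900 to 1000 CPM, 187 cells held Nfil3 at 44.4 CPM, and just outside it, at 1000 to 1100, 197 cells held 41.6 CPM. Fcer2a (the CD23 gene) stood at 110 CPM just inside and 196 CPM just outside that limit, and Apoe (apolipoprotein E) at 97.3 and 96.1 CPM. At the upper limit, cells at 1900 to 2000 and at 2000 to 2100 CPM held Nfil3 at 79.7 and 70.5 CPM, Fcer2a at 225 and 254 CPM and Apoe at 103 and 56.2 CPM.

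**Figure D1:**
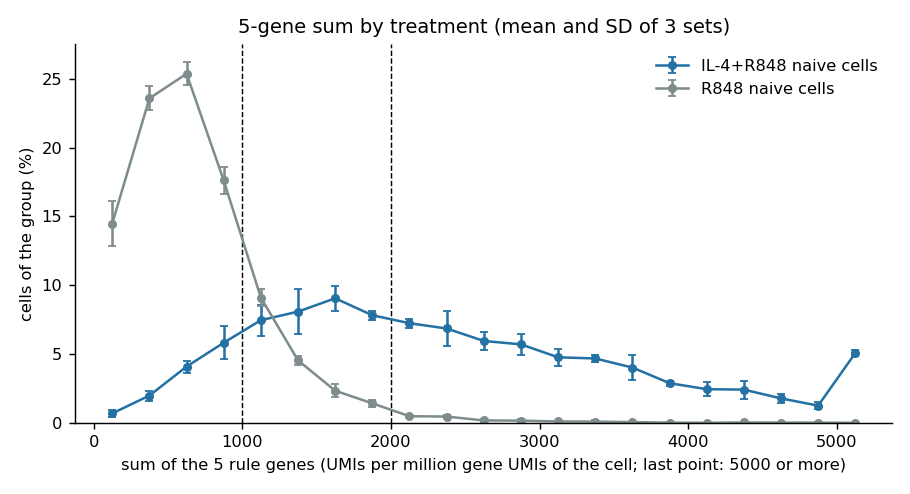
Share of naive cells (y, percent of the group, mean and SD of 3 sets) by the sum of the 5 rule genes (x, CPM of gene UMIs) in IL-4+R848 and R848 naive cells, with the limits at 1000 and 2000 dashed and all cells at 5000 or more in the last point. The IL-4+R848 curve runs through both limits without a gap, and 12.6% of its cells lie under 1000.

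Hashtag medians were close between the groups of IL-4+R848 cells. The median control hashtag was 38, 33.5 and 44.5 UMIs per low-signature cell in sets 1 to 3, against 38, 33 and 45 UMIs per high-signature cell, and the median IL-4 hashtag was 2412, 2519.5 and 2049 UMIs against 2422, 2259 and 1964 UMIs. Depth was close too, with medians of 6205, 7859.5 and 5607.5 gene UMIs in low-signature cells and 5982, 7298 and 5520 in high-signature cells, and lower, at 5123, 5878 and 4837, in R848 cells. Sets 1 and 2, 1 and 3, and 2 and 3 shared 230, 289 and 219 barcodes, of which 0, 1 and 0 were low-signature cells in both. Of the low-signature barcodes, 4, 8 and 3 (1.11%, 3.10% and 1.03%) held 3 or more UMIs of markers of T, natural killer, myeloid, dendritic, erythroid and platelet cells, or 10 or more of Jchain, against 5, 6 and 3 (0.401%, 0.395% and 0.244%) of high-signature barcodes and 25, 23 and 18 (0.851%, 0.847% and 0.658%) of R848 barcodes, and values without them are given where they matter.

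The data go in part against the name of cells that lack the IL-4 signature. Outside the 5 genes, some RNAs that were high in high-signature cells, Nfil3 among them, were above R848 in low-signature cells too, while 2 of 14 tested genes on the list for IL-4 and STAT6 responses passed as higher than R848, and so the cells are called here by their 5-gene sum. UMIs were summed per set and group and given as CPM. Low-signature cells were tested against R848 cells with edgeR's quasi-likelihood test and Benjamini-Hochberg (BH) adjustment, and a gene was called at an adjusted p under 0.05. Of 10541 genes tested, 281 (2.67%) were called higher and 131 (1.24%) lower in low-signature cells than in R848 cells. High-signature cells against R848 cells gave 742 higher (6.73%) and 771 lower (6.99%) of 11029 genes. Both comparisons use the same R848 cells. Low-signature and high-signature cells were chosen by their 5-gene sum and R848 cells were not. Genes that vary with the 5 can thus differ from R848 cells through that choice too. Low-signature and high-signature cells were split on RNA of those very cells, so genes that vary with the 5 were bound to differ between them, and the 484 higher (4.96%) and 353 lower (3.62%) of 9759 genes in that comparison (8.58% together), like every difference between these groups of RNA below, are a description. Of the 9730 genes tested in all comparisons, 52 were called in all of them with low-signature cells above R848 and below high-signature cells, and 23 with the order turned round.

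Nfil3, a leucine zipper repressor that IL-4 induces in B cells, stood at 38.2, 52.0 and 38.8 CPM in low-signature cells, 109, 128 and 122 CPM in high-signature cells and 4.29, 4.25 and 3.37 CPM in R848 cells of sets 1 to 3. The groups did not overlap, and Nfil3 rose by 3.42 ± 0.16 (log2, SE) in low-signature against R848 cells (edgeR adjusted p = 4.41e-06, higher in 3 of 3 sets). Its call held under all 18 alternatives, with log2 values of 2.90 to 3.61, and against R848 cells chosen to have 5-gene sums under 1000 CPM as well the change was 3.53 (adjusted p = 2.25e-06). After thinning to 3000 UMIs, 9.70%, 10.5% and 8.90% of low-signature cells in sets 1 to 3 had a Nfil3 UMI, against 25.2%, 27.1% and 26.7% of high-signature cells and 1.19%, 1.21% and 0.658% of R848 cells. Without thinning the shares were 16.1%, 26.7% and 16.8% in low-signature cells, 40.5%, 47.9% and 42.1% in high-signature cells and 2.31%, 2.72% and 1.76% in R848 cells. Natural killer cells held Nfil3 too, in 45.5%, 47.1% and 40.3% of thinned cells. They were only 44, 17 and 67 cells, chosen by marker RNA whatever their hashtag, so they are not of 1 treatment. Without barcodes holding RNA of other cell types Nfil3 rose by 3.44 in low-signature against R848 cells (edgeR adjusted p = 8.65e-07).

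St7, a membrane protein gene named for suppression of tumorigenicity, followed the same order. It stood at 29.0, 29.5 and 41.1 CPM in low-signature cells, 121, 138 and 148 CPM in high-signature cells and 5.25, 7.06 and 5.62 CPM in R848 cells, and rose by 2.45 ± 0.18 (log2, SE; edgeR adjusted p = 8.89e-05) against R848. Lifr, the leukemia inhibitory factor receptor, was nearly absent from R848 cells, with 0.689, 2.35 and 0.437 CPM. It reached 18.9, 22.0 and 28.0 CPM in low-signature cells and 71.8, 78.5 and 83.1 CPM in high-signature cells, a rise of 4.22 ± 0.44 in low-signature cells over R848 (log2, SE; edgeR adjusted p = 0.000474). Rflnb, a filamin-binding protein gene, stood at 106, 152 and 102 CPM in low-signature cells, 293, 336 and 275 CPM in high-signature cells and 24.8, 30.4 and 27.3 CPM in R848 cells. The 3 genes kept their calls whichever set was left out, and their low-signature, high-signature and R848 sets did not overlap.

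The 250 bases before annotated starts of Fcer2a (the CD23 gene) and St7 are shown because Fcer2a broke the order of the groups, St7 was among the genes raised in low-signature cells, and each holds TTC and GAA with 4 bases of any kind between them, the spacing that STAT6 prefers, here in capitals. They are RefSeq sequences of build GRCm38.p6, printed 5′ to 3′ in the direction of the gene, at chr8:3690862-3691111 (minus strand) and chr6:17748920-17749169 (plus strand). Each is upstream of 1 of 3 annotated starts of its gene, and the other starts hold no such motif in that window.
Fcer2a: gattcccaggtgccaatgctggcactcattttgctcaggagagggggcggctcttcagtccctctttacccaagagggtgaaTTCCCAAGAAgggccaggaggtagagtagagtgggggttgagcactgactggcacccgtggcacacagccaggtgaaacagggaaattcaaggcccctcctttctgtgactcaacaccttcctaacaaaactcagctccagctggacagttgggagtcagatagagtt
St7: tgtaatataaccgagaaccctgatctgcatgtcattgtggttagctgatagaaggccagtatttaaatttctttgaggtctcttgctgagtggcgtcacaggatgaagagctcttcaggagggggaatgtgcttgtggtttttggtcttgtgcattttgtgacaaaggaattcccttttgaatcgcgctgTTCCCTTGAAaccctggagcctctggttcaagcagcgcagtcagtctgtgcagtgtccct
Of the 99 genes named by the rule and found among the promoters searched, 7 hold the motif before at least 1 start. The others are Il12a, Ldha, Lta, Pdcd1lg2 and Tnfaip3, whose sequences are not shown, and Il12a was lower in low-signature than in R848 cells. The motif lies 168 bases before the start in Fcer2a and 60 bases before it in St7. The letters searched read alike on both strands. They occur in the 250 bases before a start of 6.757% of the 27025 genes of the promoter table, and in 5.474% of the 7636 matched genes tested between low-signature and high-signature cells. Among the 236 matched genes lower in low-signature than in high-signature cells the share was 7.627% (18 genes), and among the 363 higher ones 6.612% (24 genes). Of 38 matched genes called with low-signature cells above R848 and below high-signature cells, 3 held it, and of 15 in the turned order 0 did. The 7 of 99 named genes were thus close to the share of all genes, and binding of STAT6 was not tested.

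Gadd45g, a stress-response gene, was 113, 140 and 132 CPM in low-signature cells, 362, 428 and 508 CPM in high-signature cells and 36.9, 59.9 and 57.4 CPM in R848 cells. It rose by 1.32 ± 0.17 in low-signature against R848 cells (log2, SE; edgeR adjusted p = 0.0015) and kept the call under all 18 alternatives. Scn4a (a voltage-gated sodium channel subunit), Serpinb6b (a serine protease inhibitor) and Prelid2 (a PRELI-domain protein gene) averaged 51.1, 42.3 and 120 CPM in low-signature cells, 93.9, 79.0 and 191 CPM in high-signature cells and 14.5, 12.7 and 52.0 CPM in R848 cells. Their rises over R848 in low-signature cells were 1.83, 1.71 and 1.21 (log2; edgeR adjusted p = 1.75e-05, 0.000452 and 0.000237), each higher in 3 of 3 sets and called whichever set was left out. Eaf2, a transcription elongation factor, Stau2, an RNA-binding protein, and Zfp280b, a zinc finger gene, averaged 25.2, 11.9 and 7.18 CPM in low-signature cells, 77.2, 31.45 and 20.2 CPM in high-signature cells and 12.1, 4.23 and 3.45 CPM in R848 cells. They rose by 1.05, 1.47 and 1.04 in low-signature cells (log2; edgeR adjusted p = 0.00539, 0.00357 and 0.0318). Stau2 lost its call without set 2 (adjusted p = 0.0559), and Zfp280b lost it on leaving out any set (up to 0.244).

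Other genes came nearer to the R848 level. Klhdc2, a substrate receptor of a ubiquitin ligase, showed the largest gap between the IL-4+R848 groups among named genes lower in low-signature cells at 20 CPM or more, with 26.4, 31.5 and 34.0 CPM in low-signature cells, 156, 190 and 202 CPM in high-signature cells and 20.3, 21.8 and 18.8 CPM in R848 cells. Its change over R848 in low-signature cells was 0.58 ± 0.12 (log2, SE; edgeR adjusted p = 0.025), a call lost on leaving out any set (adjusted p of up to 0.176) and without cells holding RNA of other B cell types (0.330; the range over alternatives reached 0.795). Rab35, an endosomal recycling GTPase, averaged 45.8, 142 and 32.1 CPM in low-signature, high-signature and R848 cells and rose by 0.50 in low-signature cells (edgeR adjusted p = 0.0197, up to 0.156 with a set left out). Il4ra, the IL-4 receptor alpha chain, had 60.0, 45.5 and 53.1 CPM in low-signature cells, 96.5, 102 and 106 CPM in high-signature cells and 47.8, 55.3 and 51.6 CPM in R848 cells. Low-signature and R848 cells overlapped (log2 change 0.04 ± 0.11 SE, edgeR adjusted p = 0.901). Xbp1, a transcription factor of secretory cells, and Gpr183, an oxysterol receptor that guides B cells in follicles, averaged 80.2 and 68.2 CPM in low-signature cells, 123 and 104 CPM in high-signature cells and 59.9 and 57.4 CPM in R848 cells. Neither passed the test against R848 (edgeR adjusted p = 0.227 and 0.577). Socs1, a feedback inhibitor of cytokine receptors, averaged 29.6, 49.0 and 18.1 CPM in low-signature, high-signature and R848 cells, with an adjusted p of 0.102 in edgeR against R848. It passed in 3 of 18 alternatives, with the set as a block (0.0475), with DESeq2 (0.0417) and with no filter (0.00321).

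Of the 14 tested members of the 20-gene list of IL-4 and STAT6 response genes, 2 were higher (Nfil3 and Prelid2) and 2 lower (Fcer2a and Socs3) in low-signature than in R848 cells, beside 2.67% and 1.24% of all genes, with a median change of 0.19 against -0.01 for all genes (log2). In high-signature against R848 cells 11 of 18 were higher and 3 lower, beside 6.73% and 6.99% of all genes, with a median of 0.92. Between low-signature and high-signature cells, 2 of 17 were higher and 10 lower, beside 4.96% and 3.62% of all genes, with a median of -0.62. The list's summed level was 614 to 774 CPM in low-signature cells, 1137 to 1252 CPM in high-signature cells and 641 to 647 CPM in R848 cells, so low-signature and R848 cells overlapped. Cdh1 (E-cadherin) had no count in low-signature cells of any set, against 1.69, 2.53 and 3.36 CPM in high-signature cells and no count in R848 cells. Cbr3, a carbonyl reductase, was at 1.68, 0.5003 and 0 CPM in low-signature cells, 9.76, 5.39 and 6.05 CPM in high-signature cells and 0, 0.153 and 0.0624 CPM in R848 cells. Cish, another feedback inhibitor, was at 0, 1.501 and 0.596 CPM in low-signature cells, 2.53, 4.21 and 3.76 CPM in high-signature cells and 0.795, 0.307 and 0.562 CPM in R848 cells.

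**Figure D2:**
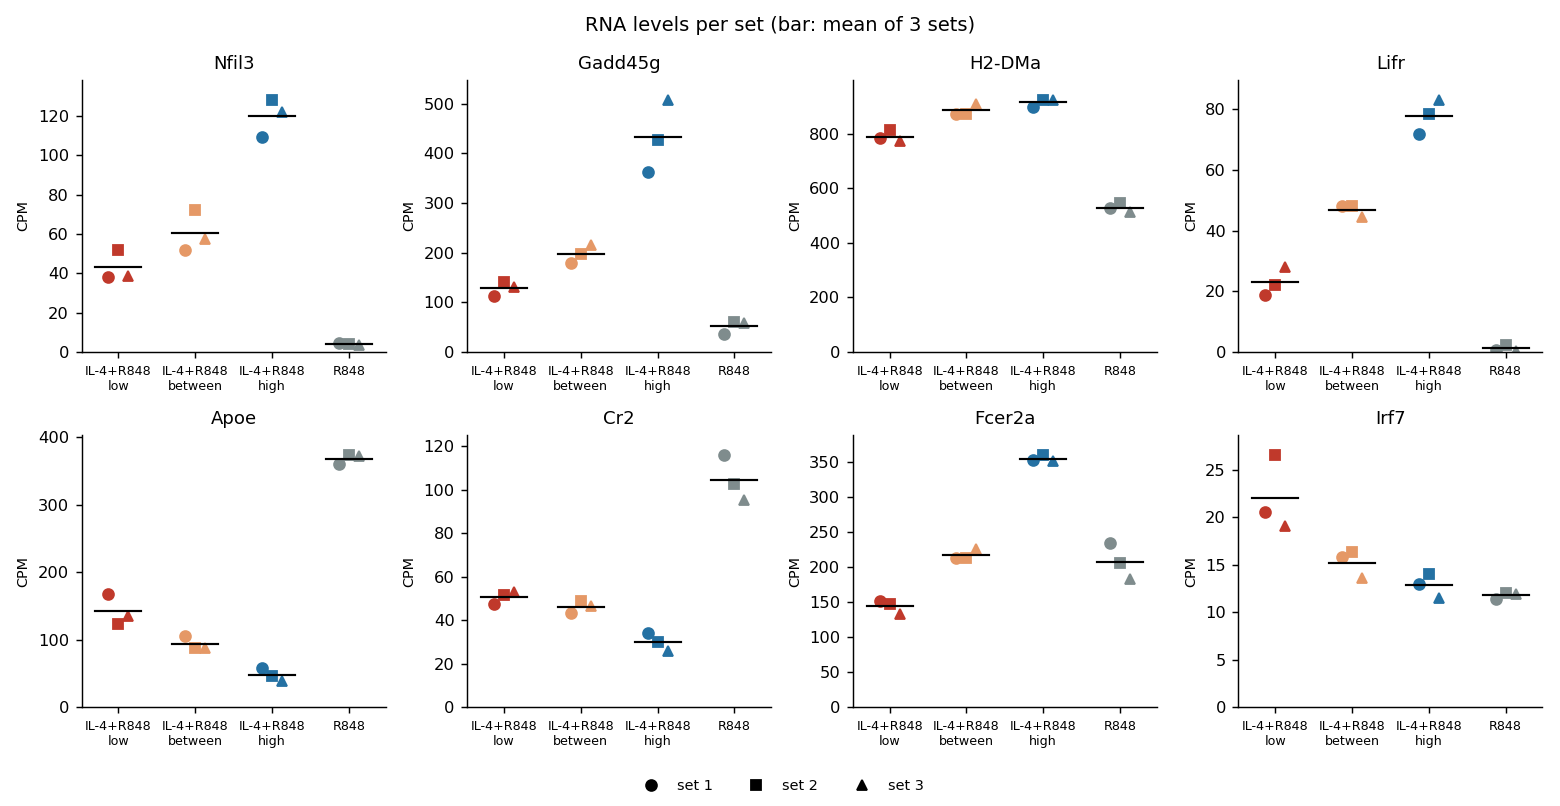
RNA level (y, CPM) of 8 genes in each set, in low-signature, in-between (1000 to 2000 CPM) and high-signature IL-4+R848 naive cells and in R848 naive cells (x), with the mean of 3 sets as a bar. Nfil3, Lifr, Gadd45g and H2-DMa of low-signature cells lie between R848 and high-signature cells, Apoe and Cr2 do so in the other direction, Fcer2a is lowest and Irf7 highest in low-signature cells.

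Of 20 tested members of the list of IL-4 receptor and signalling genes, 0 were higher and 2 lower (Socs3 and Ptpn6, a phosphatase) in low-signature than in R848 cells by edgeR, beside 2.67% and 1.24% of all genes. Stat6 stood at 46.6, 42.0 and 32.8 CPM in low-signature cells, 49.1, 44.4 and 47.9 CPM in high-signature cells and 47.0, 42.5 and 47.5 CPM in R848 cells. Set 3 was lower than the others in low-signature cells, and the change against R848 was -0.16 ± 0.12 (log2, SE; edgeR adjusted p = 0.560). The common gamma chain Il2rg averaged 280, 284 and 310 CPM, Jak1 167, 164 and 196 CPM, and Jak3 20.2, 18.3 and 28.3 CPM in low-signature, high-signature and R848 cells, and none passed against R848 (adjusted p = 0.437, 0.106 and 0.117). Between the IL-4+R848 groups Il4ra differed by -0.93 ± 0.09 (log2, SE). Jak2, another receptor kinase, picked after its values were seen, averaged 30.6 CPM in low-signature cells, 45.3 CPM in high-signature cells and 26.7 CPM in R848 cells.

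MHC class II molecules present antigen to T cells. Of 14 tested genes for MHC class II and costimulation, 9 were higher and 0 lower in low-signature than in R848 cells, beside 2.67% and 1.24% of all genes, with a median change of 0.31 against -0.01 for all genes (log2). In high-signature against R848 cells 11 of 14 were higher and 0 lower, beside 6.73% and 6.99% of all genes, with a median of 0.45. Between low-signature and high-signature cells 0 of 13 were higher and 7 lower, beside 4.96% and 3.62%, with a median of -0.14. H2-Oa, a chain of the peptide-loading modulator DO, stood at 701, 690 and 706 CPM in low-signature cells, 713, 683 and 699 CPM in high-signature cells and 438, 458 and 442 CPM in R848 cells. Low-signature and high-signature cells overlapped and both lay above R848, with a rise of 0.65 ± 0.06 in low-signature cells (log2, SE; edgeR adjusted p = 0.00024). H2-DMa, a chain of the peptide exchange factor DM, stood at 783, 812 and 773 CPM in low-signature cells, 899, 924 and 923 CPM in high-signature cells and 527, 544 and 514 CPM in R848 cells, a rise of 0.58 ± 0.06 in low-signature cells (log2, SE; adjusted p = 0.000437). Ciita, the coactivator that drives class II transcription, averaged 159, 208 and 116 CPM in low-signature, high-signature and R848 cells. Its rise of 0.46 in low-signature cells (edgeR adjusted p = 0.0103) lost the call with any set left out (up to 0.144). Cd40, the receptor for T cell help, averaged 114, 152 and 109 CPM in the same order and did not pass against R848 (adjusted p = 0.799).

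Some genes that IL-4 lowered were lower in low-signature cells too. Of 13 tested members of a list chosen from earlier results of these libraries, and so no independent evidence of direction, 0 were higher and 5 lower in low-signature than in R848 cells, with a median of -0.51, and 0 higher and 13 lower in high-signature than in R848 cells, with a median of -1.16 (log2). The shares of all genes higher and lower were 2.67% and 1.24% in the first comparison and 6.73% and 6.99% in the second. Between low-signature and high-signature cells 6 of 12 were higher and 0 lower, beside 4.96% and 3.62% of all genes. Of the genes that follow, Apoe, Bcl2a1b and Ccr6 are on that list, and Cr2, Cd24a and Ccr7 are not. Apoe, the lipid carrier apolipoprotein E, stood at 168, 124 and 135 CPM in low-signature cells, 58.1, 46.5 and 38.4 CPM in high-signature cells and 361, 373 and 372 CPM in R848 cells, and fell by 1.37 ± 0.10 in low-signature against R848 cells (log2, SE; edgeR adjusted p = 8.89e-05). Cr2, the complement receptor CD21, stood at 47.4, 51.5 and 53.1 CPM in low-signature cells, 34.3, 30.2 and 26.1 CPM in high-signature cells and 116, 103 and 95.2 CPM in R848 cells, and fell by 1.05 ± 0.10 (log2, SE; adjusted p = 0.000328). Of the alternatives for Apoe and Cr2, the sums of cells with at most 20 UMIs of the other hashtag alone lost the call (adjusted p = 0.296 and 0.159). Cd24a, a glycoprotein of immature B cells, averaged 215, 172 and 391 CPM, and Bcl2a1b, an antiapoptotic BCL2 family gene, 59.6, 40.3 and 92.6 CPM in low-signature, high-signature and R848 cells, with adjusted p = 0.00115 and 0.00318 against R848. Bcl2a1b lost its call without set 1 (adjusted p = 0.0671). The chemokine receptors Ccr7 and Ccr6, which place B cells at the follicle edge, averaged 188 and 82.5 CPM in low-signature cells, 108 and 48.6 CPM in high-signature cells and 284 and 116 CPM in R848 cells. Their falls of 0.59 and 0.49 in low-signature cells (log2; edgeR adjusted p = 0.0405 and 0.0186) lost the call without set 1 (0.149 and 0.175) or set 2 (0.180 and 0.0505), and Ccr6 also without set 3 (0.0901).

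A few genes overlapped between low-signature and high-signature cells while both lay below R848. Pcp4, a calmodulin-binding peptide, stood at 6.72, 12.01 and 9.54 CPM in low-signature cells, 7.59, 5.73 and 7.66 CPM in high-signature cells and 53.5, 47.8 and 38.6 CPM in R848 cells. The IL-4+R848 groups overlapped, and Pcp4 fell by 2.33 ± 0.21 in low-signature against R848 cells (log2, SE; edgeR adjusted p = 0.000237), a call that held under all 18 alternatives. Rgl1, a Ral guanine nucleotide exchange factor, averaged 6.04, 5.38 and 24.1 CPM, and Trib2, a pseudokinase, 30.2, 27.3 and 63.3 CPM in low-signature, high-signature and R848 cells, with falls of 1.98 and 1.06 in low-signature against R848 cells (log2; adjusted p = 0.000437 and 0.000624). Il12a, the p35 subunit of IL-12, averaged 9.60, 12.2 and 28.8 CPM in low-signature, high-signature and R848 cells and fell by 1.59 against R848 (adjusted p = 0.00234), a call lost without set 2 (0.0595). Its difference between low-signature and high-signature cells was -0.35 (log2), which did not pass in any of 17 alternatives and ran from -0.70 to 0.75 over them. Rgs2, a regulator of G protein signalling, averaged 20.5, 19.7 and 47.9 CPM and fell by 1.23 (adjusted p = 0.0146, up to 0.172 with a set left out).

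**Figure D3:**
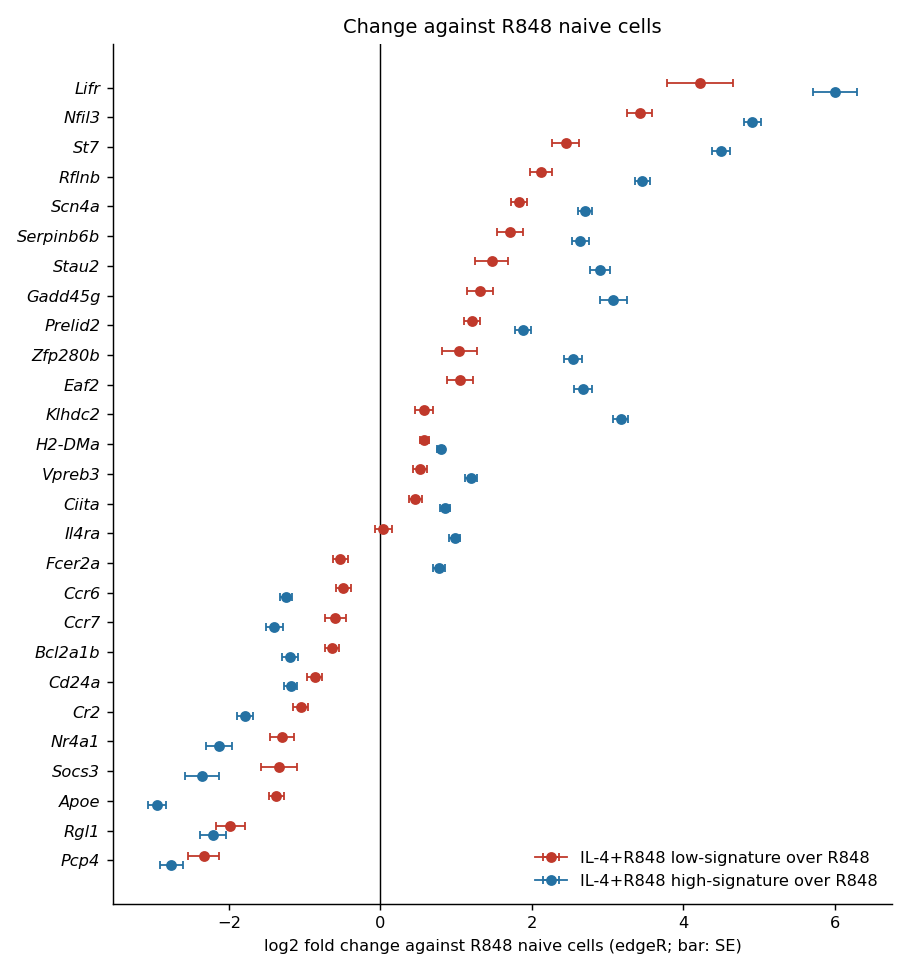
Change against R848 naive cells (x, log2 fold change by edgeR, bar SE) of 27 named genes (y) in low-signature and in high-signature IL-4+R848 naive cells, which share the R848 cells. Points of low-signature cells lie nearer to 0 than those of high-signature cells for most genes, at about the same place for Pcp4 and Rgl1, and on the other side of 0 for Fcer2a.

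Immediate-early genes mark recent stimulation and also cell handling. Of 16 tested members of the recently activated list, 1 was higher (Cd83), 6 were lower and the others did not pass in low-signature against R848 cells. The shares of all genes were 2.67% and 1.24%, and the median of the list was -0.91 (log2). In high-signature against R848 cells 1 was higher and 13 lower, beside 6.73% and 6.99% of all genes, with a median of -1.15. Nr4a1, an orphan nuclear receptor induced by antigen receptor signals, stood at 46.6, 46.0 and 46.5 CPM in low-signature cells, 22.5, 31.3 and 23.0 CPM in high-signature cells and 141, 110 and 89.6 CPM in R848 cells, and fell by 1.29 ± 0.16 in low-signature cells (log2, SE; edgeR adjusted p = 0.00115, 0.0529 without set 2). Junb, an AP-1 subunit, averaged 376, 276 and 727 CPM in low-signature, high-signature and R848 cells and fell by 0.95 (adjusted p = 0.00539, 0.109 without set 2). Cd83, which stabilises MHC class II at the surface, averaged 532, 805 and 354 CPM and rose by 0.59 (adjusted p = 0.000842). It was picked after its values were seen. Of 17 tested members of the cell handling list, 1 was higher and 7 lower in low-signature than in R848 cells, and the part of handling in these differences was not tested.

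Fcer2a broke the order. Its RNA stood at 152, 148 and 134 CPM in low-signature cells, 354, 360 and 352 CPM in high-signature cells and 235, 206 and 184 CPM in R848 cells. Low-signature cells were the lowest with no overlap. The change against R848 was -0.53 ± 0.10 in low-signature cells (log2, SE; edgeR adjusted p = 0.0129) and 0.77 ± 0.08 in high-signature cells (adjusted p = 8.78e-05). The low-signature call was lost without set 1 (adjusted p = 0.0884) or set 2 (0.146) and in cells of at least 6000 gene UMIs (log2 -0.21, adjusted p = 0.364), and over all 18 alternatives the change ran from -1.16 to -0.21. After thinning, 32.4%, 26.4% and 28.4% of low-signature cells had a Fcer2a UMI, against 53.6%, 55.6% and 54.9% of high-signature cells and 47.1%, 44.0% and 40.1% of R848 cells, and 0% of the natural killer cells in each set. Unthinned, the shares were 45.4%, 49.6% and 42.8% of low-signature cells, 74.2%, 77.0% and 71.6% of high-signature cells and 62.3%, 59.4% and 51.6% of R848 cells.

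Surface antibody tags are counted apart from RNA, so the rule did not use them. CD23 protein, encoded by Fcer2a, averaged 8.16, 7.87 and 7.84 per low-signature cell in sets 1 to 3, 8.88, 8.69 and 8.59 per high-signature cell and 7.42, 7.46 and 7.35 per R848 cell, on the scale of mean log2(tag UMIs + 1). Low-signature cells thus carried more CD23 tag than R848 cells by 0.55 and less than high-signature cells by 0.76 on that scale, without overlap, while their Fcer2a RNA was the lowest. Tag UMIs, of CD23 and of the tags below, were not scaled for depth. R848 cells had fewer gene UMIs than low-signature cells. Their own hashtag was lower too, with medians of 1640, 1492 and 1570 UMIs against 2412, 2519.5 and 2049. The part of depth in tag differences from R848 cells was not tested. In 8.59%, 12.8% and 13.4% of low-signature cells the CD23 tag was under 64 UMIs, against 3.45%, 6.12% and 5.38% of high-signature cells and 16.6%, 17.4% and 18.1% of R848 cells. Among cells with at least 64 CD23 tag UMIs, the Fcer2a RNA change against R848 was -0.60 (edgeR adjusted p = 0.00282).

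CD21, the product of Cr2, averaged 5.42, 5.40 and 5.06 in low-signature cells, 4.84, 4.73 and 4.40 in high-signature cells and 6.51, 6.09 and 5.83 in R848 cells. The activation epitope GL7 averaged 3.79, 3.76 and 3.23 in low-signature cells, 4.29, 4.30 and 3.85 in high-signature cells and 2.94, 2.85 and 2.42 in R848 cells. Both tags put low-signature cells in between, without overlap. IgM averaged 4.50, 4.91 and 4.84 in low-signature cells, 4.81, 5.18 and 5.09 in high-signature cells and 4.06, 3.89 and 3.91 in R848 cells, so low-signature cells lay above R848 cells without overlap. Their range overlapped that of high-signature cells, but within each set they were lower, in 3 of 3 sets, by 0.28 on average (exact permutation test over unpaired sets, p = 0.30). CD138 (syndecan-1, a plasma cell marker) was as low in low-signature cells, at 2.68 ± 0.14, as in high-signature cells, at 2.68 ± 0.20, against 3.36 ± 0.22 in R848 cells (mean log2, SD, n = 3 sets). Surface IgD averaged 8.17 ± 0.17, 8.26 ± 0.15 and 7.99 ± 0.15 in low-signature, high-signature and R848 cells (SD, n = 3) with overlapping ranges, but within each set low-signature cells were below high-signature cells and above R848 cells, in 3 of 3 sets. Where groups did not overlap, the exact permutation test over sets gave p = 0.10 (two-sided), the smallest that 3 sets against 3 allow, or 0.40 against high-signature cells and 0.24 against R848 cells after adjustment over 12 tags, so no tag difference could pass the threshold. The differences without overlap kept their sign with a hashtag ratio of 32. Where groups do not overlap, leaving out a set cannot turn the sign, so this was no check of them.

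**Figure D4:**
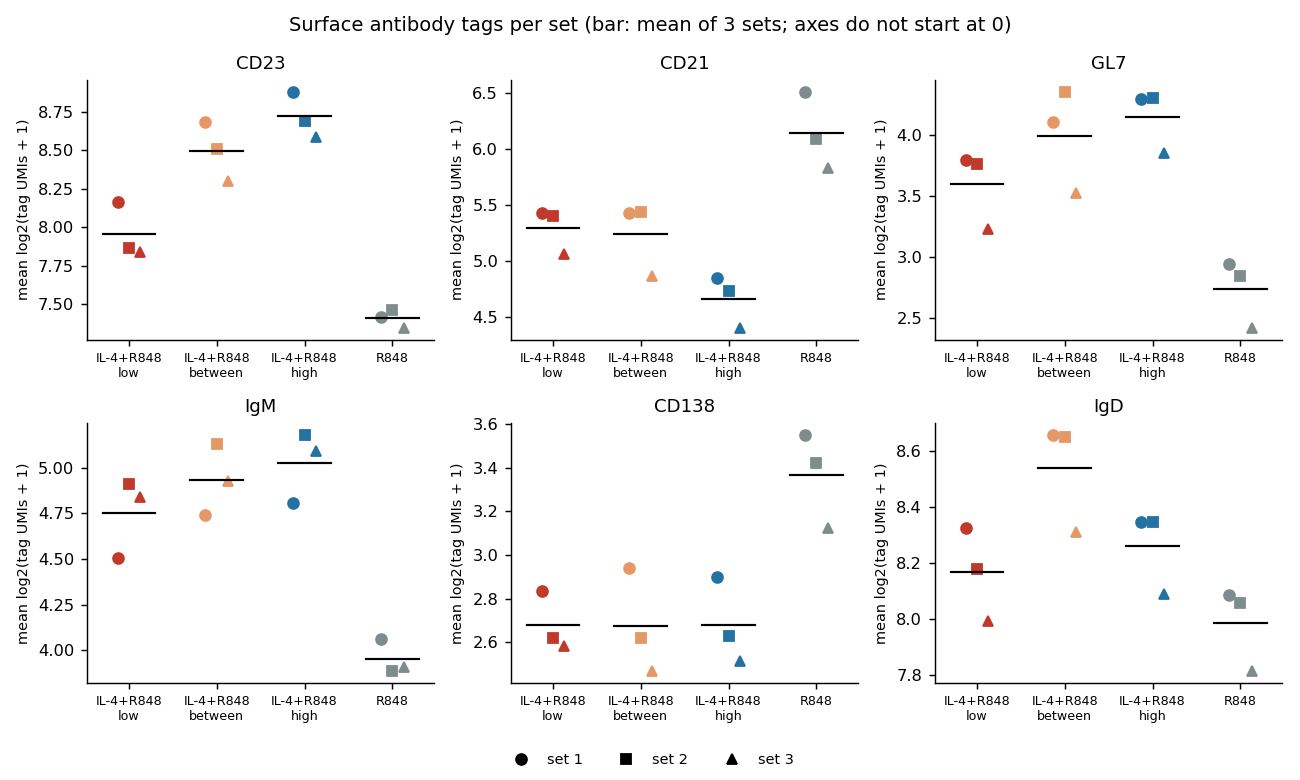
Surface tags (y, mean log2(tag UMIs + 1), axes not starting at 0) of 6 proteins in each set for low-signature, in-between and high-signature IL-4+R848 naive cells and R848 naive cells (x), with the mean of 3 sets as a bar. CD23 of low-signature cells averages 7.96, below 8.72 in high-signature cells and above 7.41 in R848 cells, and CD138 is 2.68 in low-signature and high-signature cells against 3.36 in R848 cells.

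Some genes were highest in low-signature cells. A total of 133 genes were called higher in low-signature cells than in both high-signature and R848 cells, while 9730 genes were tested in all comparisons. Of the 133, 74 encode ribosomal proteins, a group picked after its values were seen. Of 82 ribosomal protein genes tested, 75 were higher than in high-signature and 74 than in R848 cells, beside 4.96% and 2.67% of all genes. These changes were small, with medians of 0.19 and 0.33 and at most 0.30 and 0.50 (log2). Ribosomal protein genes took a median of 41.1%, 42.2% and 42.9% of the gene UMIs of a low-signature cell in sets 1 to 3, against 37.8%, 38.8% and 39.1% of a high-signature cell and 36.3%, 36.3% and 38.2% of an R848 cell. Low-signature cells were higher than both in every set. In-between cells (1000 to 2000 CPM) were close to them, at 41.0%, 41.5% and 42.1%, so a high share was not particular to low-signature cells. On plain totals, as for the 5-gene sum, a higher ribosomal share lowers the other values. The CPM of tested genes are on totals rescaled by edgeR's TMM factors. On these, the median change of all genes in low-signature against R848 cells was -0.006 (log2). With ribosomal protein genes left out before scaling, 270 genes were called between low-signature and R848 cells, against 338 calls of other genes when they were kept.

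Some genes that type I interferon induces were higher than in R848 or high-signature cells. Of 25 tested members of the type I interferon list, 3 were higher and 0 lower in low-signature than in R848 cells, beside 2.67% and 1.24% of all genes, with a median of 0.28 (log2). Between low-signature and high-signature cells, 11 of 23 were higher and 0 lower, beside 4.96% and 3.62% of all genes, with a median of 0.67. In high-signature against R848 cells 0 of 28 were higher and 6 lower, beside 6.73% and 6.99% of all genes. The summed level was 1218 to 1359 CPM in low-signature cells, 842 to 971 CPM in high-signature cells and 950 to 1281 CPM in R848 cells, so low-signature and R848 cells overlapped. In-between cells summed to 1160, 1176 and 1203 CPM in sets 1 to 3. Irf7, the factor that amplifies interferon production, stood at 20.6, 26.5 and 19.1 CPM in low-signature cells, 13.01, 14.1 and 11.6 CPM in high-signature cells and 11.45, 12.03 and 11.99 CPM in R848 cells, and rose by 0.90 ± 0.14 (log2, SE; edgeR adjusted p = 0.00521) against R848. With each cell thinned to 3000 UMIs the change was 0.31 (adjusted p = 0.620), and without set 1 or set 2 the adjusted p was 0.0563 and 0.109. Irf9, a subunit of the interferon-activated factor ISGF3, averaged 57.1, 40.4 and 40.3 CPM in low-signature, high-signature and R848 cells, and Isg15, a ubiquitin-like protein, 21.4, 10.2 and 14.3 CPM. Their adjusted p against R848 was 0.0281 and 0.0451. Irf9 lost the call without set 2 or 3 (up to 0.234), and Isg15 without set 1 or 2 (up to 0.354), with the set as a block (0.0724) and in thinned cells (0.914).

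Markers of marginal zone B cells, which respond to blood-borne antigen and hold high CD21 and low CD23, had a summed level of 2070 to 2232 CPM in low-signature cells, 1522 to 1655 CPM in high-signature cells and 1680 to 1920 CPM in R848 cells. Without Plac8, a gene for a cysteine-rich protein and the most abundant member, the sums were 1041 to 1132 CPM in low-signature cells, 913 to 926 CPM in high-signature cells and 892 to 1012 CPM in R848 cells. In-between cells held 1905, 2011 and 1989 CPM with Plac8 and 1029, 1043 and 1000 CPM without it in sets 1 to 3. That list had 12 members tested against R848. In low-signature cells 3 were higher (Myof, Mzb1 and Plac8) and 2 lower (Cr2 and Rasgef1b), beside 2.67% and 1.24% of all genes. The median change was 0.08 (log2). Between low-signature and high-signature cells 9 of 11 were higher and 0 lower, beside 4.96% and 3.62% of all genes, with a median of 0.70. In high-signature against R848 cells 2 of 12 were higher and 7 lower, beside 6.73% and 6.99%, with a median of -0.69. Fcrl5, an Fc receptor-like inhibitory receptor, stood at 50.8, 44.5 and 53.1 CPM in low-signature cells, 14.5, 11.6 and 17.2 CPM in high-signature cells and 64.3, 58.3 and 77.8 CPM in R848 cells. Its change against R848 was -0.44 (edgeR adjusted p = 0.0898), and it passed in 3 of 18 alternatives, among them the set as a block (0.0277). Cd9, a tetraspanin, averaged 14.7, 5.40 and 15.5 CPM, and Cd1d1, which presents lipids, 26.4, 14.9 and 30.9 CPM in low-signature, high-signature and R848 cells, with adjusted p = 0.873 and 0.466 against R848. Myof, a membrane-repair ferlin, averaged 33.6, 24.3 and 14.1 CPM and rose by 1.26 (edgeR adjusted p = 0.000448). Cells with 3 or more UMIs of other B cell types' markers were 11.4%, 19.4% and 8.90% of low-signature cells, 9.55%, 11.9% and 7.42% of high-signature cells and 12.96%, 14.5% and 11.4% of R848 cells. Without them the low-signature share of IL-4+R848 naive cells was 12.3%, and Nfil3 rose by 3.46 against R848 (edgeR adjusted p = 4.09e-06, up to 0.01 over its alternatives).

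**Figure D5:**
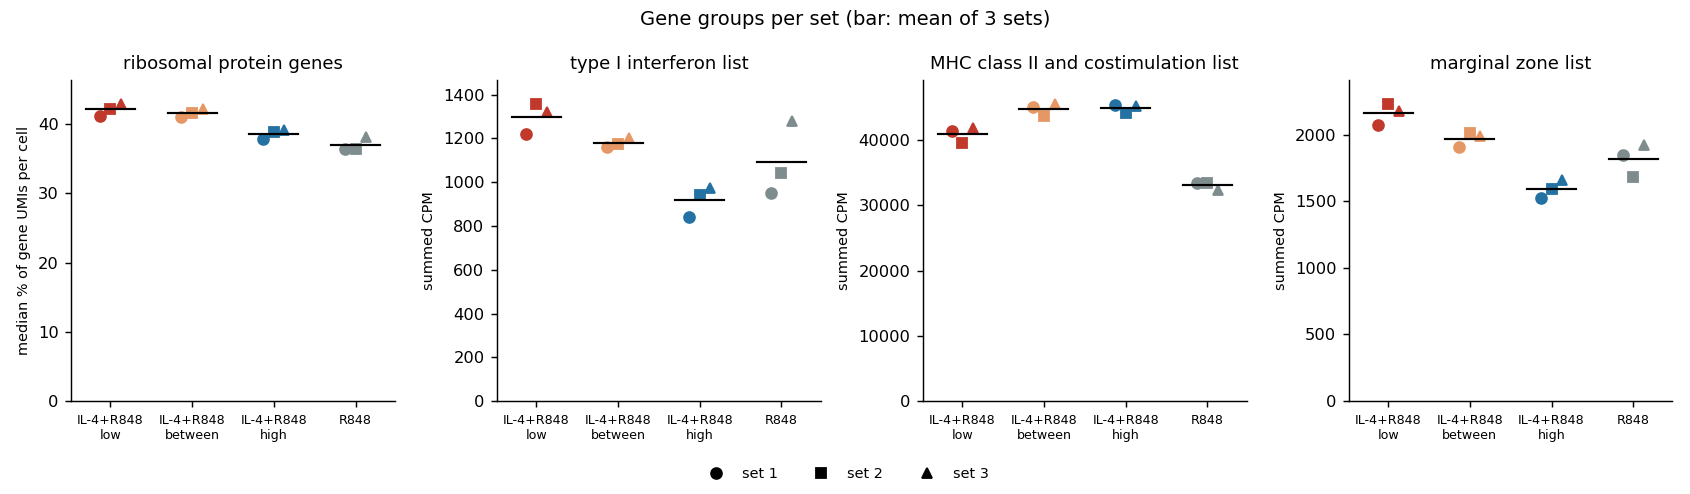
Gene groups in each set: median ribosomal share per cell (y, percent of gene UMIs) and summed CPM (y) of the type I interferon, MHC class II and costimulation, and marginal zone lists in low-signature, in-between and high-signature IL-4+R848 naive cells and R848 naive cells (x), with the mean of 3 sets as a bar. The ribosomal share is highest in low-signature cells, as is the marginal zone sum, of which Plac8 makes up 1029 to 1110 CPM there and 788 to 931 CPM in R848 cells, and MHC class II sums of the IL-4+R848 groups lie above R848 cells, which reach 33493 CPM at most. In-between cells come next below low-signature cells in ribosomal share and marginal zone sum.

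Gzma and Ccl5, the largest rises called against R848, rest on single barcodes. Gzma, a granzyme of cytotoxic lymphocytes, stood at 36.1, 69.5 and 137 CPM in low-signature cells, 0.723, 1.10 and 0.269 CPM in high-signature cells and 0.848, 1.48 and 0.125 CPM in R848 cells. In each set 1 barcode held 97.7%, 97.8% and 99.6% of the low-signature counts, so the edgeR rise of 6.49 (adjusted p = 0.000169) describes 3 barcodes. The chemokine Ccl5 was alike, with 84.4%, 100% and 100% of its counts in 1 barcode per set. Without barcodes holding RNA of other cell types, neither gene had counts enough to be tested. The joining chain Jchain had 1400 of its 1583 low-signature counts of set 2 in 1 barcode, and its change against R848 was 1.62 (adjusted p = 0.360), or 0.21 (0.904) without barcodes holding RNA of other cell types. It passed in 1 of 17 alternatives, with no filter (0.00967). Igll1, a surrogate light chain gene of B cell precursors, came from 2 cells in each set.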

How the data were processed

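As the authors deposited them, the matrices are UMI counts for each barcode, covering genes, 2 hashtags and 12 surface antibody tags, with no normalization in the headers. The file headers name Cell Ranger 6.0.1; mm10 and Seurat 4.1.3 are listed in the submitters' processing notes. Sets 1 to 3 held 14519, 11389 and 14222 barcodes with 107244246, 96866964 and 99522280 gene UMIs. Members and gene lists were chosen with earlier results of these data known.

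The 5 rule genes were removed and counts summed per set and group. Sums held 1776441 to 2477302 UMIs for low-signature, 7445872 to 11834212 for high-signature and 15070367 to 17953265 for R848 cells. They were tested in edgeR 4.0.16 (R 4.3.3; TMM, filterByExpr, quasi-likelihood F test, BH threshold 0.05), with the set as a block between the IL-4+R848 groups and without it against R848. CPM are on TMM-scaled totals, except the 5-gene sum and values beside its limits. Cells of a set share a library. Deviations of a set's sums over 2344 genes correlated at 0.174, 0.176 and 0.112 between low-signature and R848 cells. They correlated at 0.412, 0.188 and 0.311 between both IL-4+R848 groups and at 0.270, 0.283 and 0.175 between high-signature and R848 cells. Groups of a set thus varied together, through the library or the mice, which cannot be told apart. The tests against R848 leave this out, with 412 calls for low-signature cells against 528 with the block. The edgeR step was tested on simulated counts.

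Named genes were, per comparison of low-signature cells, the 12 largest changes each way that passed, had the same sign in 3 sets and at least 20 CPM, leaving out Ig and T cell receptor variable genes, up to 3 passing members of each list, and all tested members of both IL-4 lists; other genes are said to be chosen later or stand in counts only. Barcodes carrying both hashtags failed the hashtag ratio, but doublets of 1 treatment stay in, and no doublet caller was run. Alternatives were DESeq2 1.42.0, no filter, other gates, thinning, removal of barcodes with other cells' RNA and leaving out sets. Python 3.11.15 with SciPy 1.17.1 was used.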

Additional observations from a re-analysis of the deposited data

Results flagged for a closer look

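For 5 of the 9730 genes tested in all comparisons, the change against R848 cells had opposite signs in low-signature and high-signature IL-4+R848 cells. Each change was called by edgeR, and the difference between these groups was called too. Against R848 cells the low-signature change was -0.527 for Fcer2a, 0.342 for Plac8, 0.374 for AW112010, 0.589 for Isg15 and -3.577 for Igkv1-132 (log2). The edgeR adjusted p was 0.0129, 0.0212, 0.044, 0.0451 and 0.0461 in that order. AW112010, Isg15 and Igkv1-132 thus lay just under the threshold of 0.05. The difference between the IL-4+R848 groups was -1.29 for Fcer2a, 0.695 for Plac8, 1.07 for the noncoding RNA AW112010, 1.085 for Isg15 and -4.93 for the kappa variable gene Igkv1-132 (log2, low-signature over high-signature). Plac8 averaged 1080 CPM in low-signature cells, 670 CPM in high-signature cells and 851 CPM in R848 cells, and AW112010 153, 72.9 and 118 CPM. Igkv1-132 rested on 2 counts in low-signature cells. The groups were split on RNA of the same cells, and the causes were not tested.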

How the results depend on the processing

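Counts of calls depended on the processing. Between low-signature and high-signature cells the 837 calls became 406 with the DESeq2 Wald test, 539 with no replicate block, 451 in cells of at least 6000 gene UMIs, 517 with cells thinned to 3000 UMIs, 283 with at least 3 Ighd UMIs, 183 with the limit at 500 CPM and 64 with at most 20 UMIs of the other hashtag, and ran from 356 (without set 1) to 938 with a set left out. Between low-signature and R848 cells the 412 calls became 723 with no filter, 240 at 6000 UMIs, 266 with 3 Ighd UMIs, 70 at 500 CPM, 128 with at most 20 UMIs of the other hashtag and 270 without ribosomal genes (338 of the 412 were not ribosomal), and ran from 71 (without set 2) and 133 (without set 1) to 279 with a set left out; the replicate block gave 528. Between high-signature and R848 cells the 1513 calls became 900 with 3 Ighd UMIs and 403 with at most 20 UMIs of the other hashtag, ran from 706 (without set 2) to 1161 with a set left out, and were 2040 with the replicate block. With no filter, the share of lower calls was 54.5% against 42.2% between IL-4+R848 groups and 48.3% against 31.8% for low-signature against R848 cells; it was also 54.1% and 44.3% at 500 CPM, and 57.8% between the IL-4+R848 groups with at most 20 UMIs of the other hashtag. Fewer cells or genes enter most of these settings; the other causes were not tested. The low-signature share of 12.6% was 2.66% at 500 CPM and 11.7% to 13.7% with a set left out. Of 61 named genes called between low-signature and R848 cells, 22 kept the call whichever set was left out and 8 under every alternative in which they were tested. Signs turned for Isg15 against R848 with 3 Ighd UMIs (-0.003) and with at most 20 UMIs of the other hashtag (-0.136), Sdc1 against R848 with at most 20 UMIs of the other hashtag (0.240), Igll1 against R848 in cells of 6000 UMIs (-0.359), and between the IL-4+R848 groups for Sox4 at 6000 UMIs (-0.596), Ly6c2 without cells of other B cell types (-0.322) and Nr4a1 at 500 CPM (-0.018).

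The limits are these. A low-signature call rests on few UMIs, low-signature sums are the smallest, and the labels do not tie sets to separate mice. The named alternatives with other-cell barcodes, other B cell types, ribosomal genes, CD23 tags and the 20-UMI hashtag limit were chosen after seeing the data.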
